A study of Mus musculus with 20 samples.

Results

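The G1 cyclins, CDK inhibitors and Myc were examined as 10 genes of the 22090 gene symbols in the count table: Ccnd1, Ccnd2, Ccnd3, Cdk4, Cdk6, Cdkn2a, Cdkn2b, Cdkn1b, Rb1 and Myc. They were chosen by symbol for their place in the passage from G1 to S phase, and all 10 were found and passed the filter on low counts in every comparison. RNA-seq had been performed on skin of female SKH-1 mice, a hairless strain that forms skin tumors under ultraviolet light. The mice were 7 months old when the study began, and irradiation followed, so the sampled skin was older. There were 8 normal skin (NS), 8 actinic keratosis (AK, a precancerous lesion of sun-damaged epidermis) and 4 cutaneous squamous cell carcinoma (cSCC) samples. The 8 mice formed 2 groups of 4, unirradiated and irradiated, with no other agent or allele. By the study's methods, each unirradiated mouse gave 1 NS, and each irradiated mouse gave 1 NS, 2 AK and 1 cSCC. The labels do not say which NS came from irradiated mice or which tissues share a mouse. NS therefore stood as 1 group, the samples were treated as unpaired, and p-values over the 8 AK from 4 mice may be too small.

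D-type cyclins are made in G1 in response to growth signals and bind CDK4 or CDK6. These kinases phosphorylate the retinoblastoma protein, which then releases E2F factors that switch on the genes of DNA replication. INK4 proteins (in this list from Cdkn2a and Cdkn2b) and p27 (from Cdkn1b) hold the kinases back. Myc is a transcription factor that raises ribosome building and metabolism and can drive cells into the cycle. In epidermis, basal keratinocytes divide and suprabasal cells have left the cycle, and cyclin D1 and loss of p16 are well known in squamous carcinoma.

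The promoters of 6 of the 10 genes were in the RefSeq promoter set used here (GRCm38.p6), as 8 start sites with 250 bases before each. Those of Ccnd1, Ccnd2, Rb1 and Myc were missing from this set and were not searched. The E-box CACGTG, the binding site of Myc with Max, was read on both strands and lay in 6.02% of the 32851 promoters of that length. It occurred 4 times before Cdk4 and once before Cdk6, and at none of the other 6 start sites. A count of at least 4 was found in 7 of the 32851 promoters (0.0213%). The Cdk4 promoter is shown for these sites, with the E-boxes in capitals, up to the last base before the first annotated exon (249 bases, chr10:127063285-127063533, plus strand).
Cdk4: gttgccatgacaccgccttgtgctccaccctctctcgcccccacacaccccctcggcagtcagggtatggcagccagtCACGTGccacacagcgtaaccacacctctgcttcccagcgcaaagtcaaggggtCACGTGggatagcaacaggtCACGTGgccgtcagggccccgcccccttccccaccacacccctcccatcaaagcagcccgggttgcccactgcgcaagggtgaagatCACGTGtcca

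Cdkn2a has 2 promoters, of which the upstream one starts the transcript of p19ARF and the downstream one that of p16INK4a. Both are shown because the deposited count is 1 value per symbol and joins the 2 transcripts. An E2F site, searched as TTTCCCGC on both strands and found in 0.895% of promoters, lay in the upstream one and is in capitals. The upstream sequence is chr4:89294654-89294869 (216 bases before the first exon) and the downstream one is chr4:89282193-89282442 (250 bases), both on the minus strand.
Cdkn2a upstream: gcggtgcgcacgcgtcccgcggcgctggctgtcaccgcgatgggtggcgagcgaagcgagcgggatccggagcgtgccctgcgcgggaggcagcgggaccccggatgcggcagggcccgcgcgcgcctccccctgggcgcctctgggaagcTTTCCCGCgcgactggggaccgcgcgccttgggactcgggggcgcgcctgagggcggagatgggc
Cdkn2a downstream: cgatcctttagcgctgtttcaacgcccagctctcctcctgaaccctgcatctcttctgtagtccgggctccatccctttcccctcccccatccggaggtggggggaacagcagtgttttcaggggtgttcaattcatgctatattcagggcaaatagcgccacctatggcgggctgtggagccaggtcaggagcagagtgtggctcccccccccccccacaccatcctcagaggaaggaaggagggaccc
These matches describe letters in the windows and were not tested as binding sites. The AP-1 site TGAGTCA was in none of the 8 windows, against 4.46% of all promoters.

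Total counts ranged from 1624325 to 6295575 in NS, from 867219 to 14055206 in AK and from 775750 to 7095102 in cSCC. Levels are CPM, in which each count is divided by its library total after TMM scaling, and 3 counts corresponded to between 0.225 and 3.78 CPM, a floor that covers counting error only. Basal keratinocyte markers (Krt5, Krt14 and 5 others) were detected in all 20 samples. They summed to 17881, 18488, 5412 and 3866 CPM in cSCC replicates 18 to 21, against 5312 to 16334 in NS and 9323 to 14363 in AK. The summed level of 6 suprabasal markers was 44.0 to 1960 CPM in cSCC against 4851 to 15045 in NS and 3155 to 13900 in AK. Of the cSCC libraries, 2 stood apart. The 6 lung epithelium markers summed to 35805 CPM in cSCC replicate 20 and to at most 51.7 CPM in every NS, AK and other cSCC sample. Of the 7 heart muscle markers, 6 were detected in cSCC replicate 21 and summed to 47787 CPM, against at most 143 CPM elsewhere. Results that rest on these libraries are given with and without them. cSCC replicate 18 had a TMM factor of 0.509 against 0.852 to 1.22 in the others, so its levels in CPM are higher than with library size alone. In bulk tissue, fewer cells of a type and less RNA per cell cannot be told apart.

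In normal skin, Cdk4 and the inhibitor Cdkn2b had the highest mean levels of the 10 genes per kb of annotated exon, and Ccnd3 the lowest mean. Exon length joined all annotated transcripts of a gene, from 1 for Cdkn2b to 21 for Ccnd3. The order between genes therefore depends on the annotation. On the scale of CPM per kb of annotated exon, mean levels in NS were highest for Cdk4 at 30.4 ± 5.15 (SD, n = 8), followed by Cdkn2b at 22.7 ± 5.96, Ccnd2 at 18.6 ± 5.80 and Cdkn1b at 12.95 ± 5.39. Myc (9.95), Ccnd1 (8.91), Rb1 (7.99), Cdk6 (5.18), Cdkn2a (2.21) and Ccnd3 (0.892) came below. Among neighbours in this order, only the gap between Cdk4 and Cdkn2b was larger than both SDs. Cdk4 also led in AK at 27.9 ± 6.14 CPM per kb. In cSCC, Ccnd1 (50.9 ± 52.3, n = 4) and Cdk4 (49.6 ± 10.03) led, did not differ beyond their spread, and stood before Cdkn2b (19.9 ± 14.4). Ccnd3 had the lowest mean in all 3 groups. By median, however, Cdkn2a (0.643 CPM per kb) was below Ccnd3 (0.850) in NS. The cSCC means of Cdkn2a (4.43 ± 4.80) and Ccnd3 (4.29 ± 5.78) did not differ beyond their spread.

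**Figure D1:**
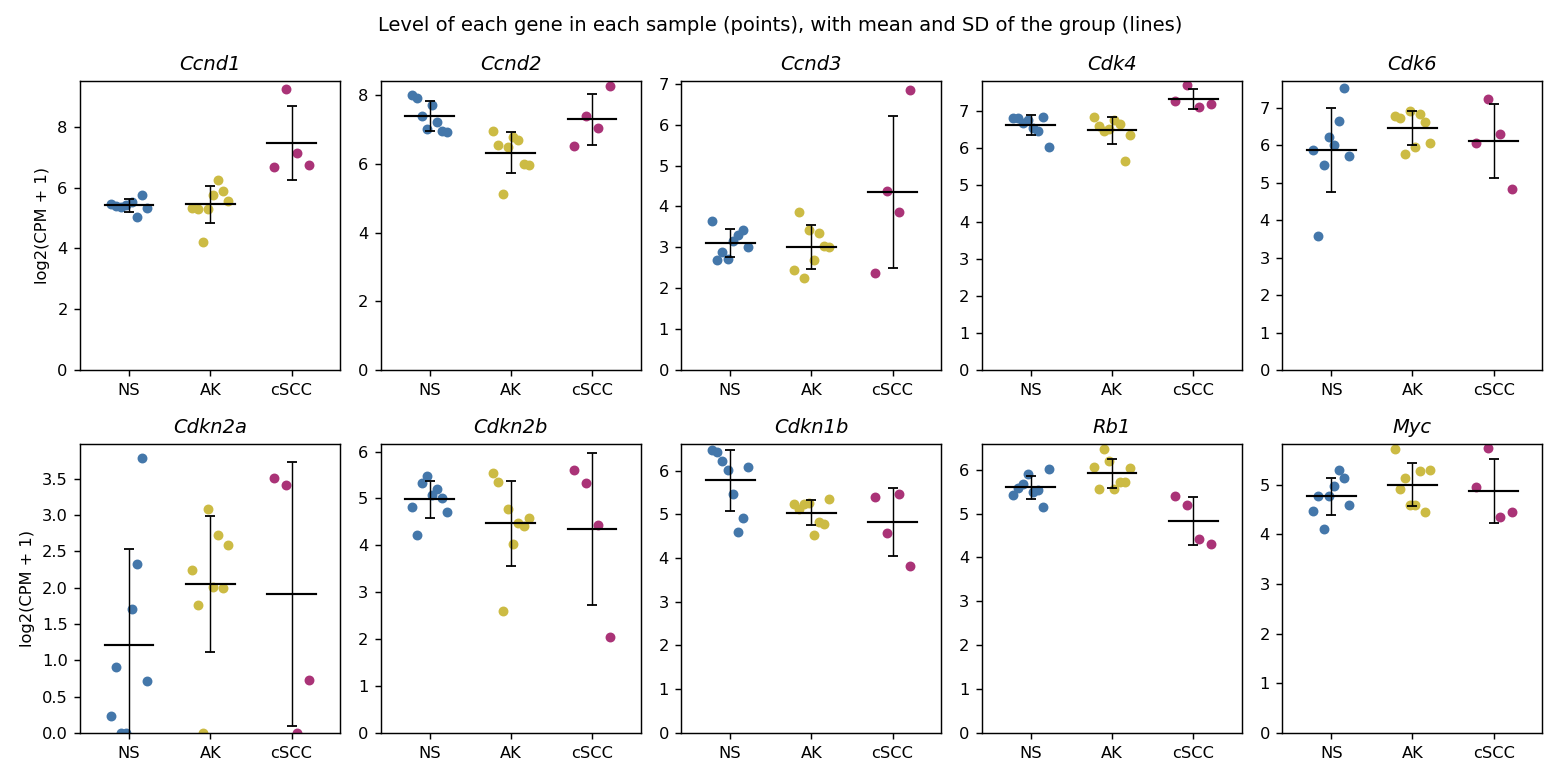
Level of each of the 10 genes as log2(CPM + 1) in each NS, AK and cSCC sample (points), with the mean and SD of each group (lines). The cSCC samples lay above all others for Ccnd1 and Cdk4, most AK samples lay below NS for Ccnd2, and Cdkn2a was near 0 in several samples.

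The D-type cyclins had the largest called log2 fold changes of the 10 genes in each comparison. Ccnd1 (cyclin D1, chr7:144929931-144939925, minus strand of GRCm38, as for all gene positions here) was higher in cSCC than in NS and AK, and did not pass in AK vs. NS. Ccnd2 was lower in AK than in NS and in cSCC. Ccnd3 was higher in cSCC in the test, with 1 library far above the rest.

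Ccnd1 ranged from 31.7 to 53.6 CPM in NS (median 41.5) and from 17.7 to 75.9 CPM in AK (median 42.5). In cSCC replicates 18, 19, 20 and 21 it was at 102, 608, 141 and 107 CPM. Every cSCC sample was above every NS and AK sample, and replicate 19 was far above the other 3. Ccnd1 was 5.91-fold higher in cSCC than in NS (log2 fold change 2.56, SE 0.40, adjusted p = 0.00167, edgeR's quasi-likelihood test with Benjamini-Hochberg adjustment over all genes) and 5.60-fold higher than in AK (2.49, SE 0.44, adjusted p = 0.00287). Without replicate 19 the log2 fold changes fell to 1.53 and 1.45 and still passed (edgeR adjusted p = 0.00278 and 0.00811). With replicates 20 and 21 left out they were 3.12 and 3.03. The groups overlapped when only library size was used for scaling, because cSCC replicate 18 was then at 51.9 CPM. Between AK and NS, Ccnd1 differed by 0.13 on the log2 scale (95% interval -0.29 to 0.55).

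Ccnd2 (cyclin D2, chr6:127125162-127152193, minus strand) ranged from 121 to 256 CPM in NS (median 157) and from 34.1 to 124 CPM in AK (median 90.7). Of the 8 AK samples, 7 were below the lowest NS sample, and the highest, AK replicate 10, was only just above it. The log2 fold change in AK vs. NS was -1.05 (SE 0.23, edgeR adjusted p = 0.0190), or 0.481-fold. This call was kept in 23 of 24 alternative settings and was lost when all 20 samples shared 1 fit (largest adjusted p = 0.0870). In cSCC replicates 18 to 21 Ccnd2 was at 90.3, 167, 131 and 305 CPM, and 3 of the 4 were above every AK sample. It was 2.28-fold higher in cSCC than in AK (log2 1.19, SE 0.35, edgeR adjusted p = 0.0248), and did not pass in cSCC vs. NS (log2 0.06, 95% interval -0.66 to 0.78). The difference from AK did not pass without cSCC replicate 21 (log2 0.62, edgeR adjusted p = 0.191) or without AK replicate 12 (0.93, adjusted p = 0.0521). It was also lost without both cSCC replicates 20 and 21 (0.67, edgeR adjusted p = 0.240), with library size alone (0.95, adjusted p = 0.0968), with no filter on low counts (0.94, adjusted p = 0.0627) and with voom (0.81, limma adjusted p = 0.143).

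Ccnd3 (cyclin D3, chr17:47505051-47599691, plus strand) was the weakest D cyclin, at 5.50 to 11.4 CPM in NS (median 7.45) and 3.78 to 13.7 CPM in AK (median 7.14). In cSCC replicates 18 to 21 it was at 4.17, 19.8, 13.7 and 113 CPM. Replicate 18 was below every NS sample and replicate 21 was above all others. The log2 fold changes of cSCC were 2.37 against NS (SE 0.58, edgeR adjusted p = 0.0135) and 2.51 against AK (SE 0.62, adjusted p = 0.0114). Both rested on replicate 21, the library with heart muscle markers, and without it were 0.74 and 0.72 (edgeR adjusted p = 0.289 and 0.351). The part of the heart muscle markers in this level was not tested.

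Within a sample, the ratio of 2 cyclins needs no scaling between libraries. The log2 ratio of Ccnd2 to Ccnd1 per kb ranged from 0.22 to 1.59 in NS and from -0.89 to 0.66 in AK, and was -1.18, -2.86, -1.11 and 0.52 in cSCC replicates 18 to 21. The NS and AK ranges overlapped, all 8 NS ratios were above 0, and cSCC replicate 21 was the only cSCC sample with more Ccnd2 than Ccnd1 per kb. The sign of a ratio depends on the annotated exon lengths, while the differences between groups do not. The mean fell from 1.01 ± 0.49 in NS to -0.11 ± 0.52 in AK (difference -1.12, exact permutation test, two-sided, p = 0.00140, adjusted over 12 ratio tests p = 0.0168). The difference of cSCC from NS was -2.17 (exact permutation p = 0.00808, adjusted p = 0.0485). This second call was lost without NS replicate 1, 2, 4, 5, 6, 7 or 9 or cSCC replicate 18, 19 or 20, one at a time (exact permutation adjusted p up to 0.0970). Fewer samples also leave fewer splits, which raises the smallest p this test can give. Leaving out each sample in turn, the difference remained at -2.72 to -1.60. The ratio in cSCC vs. AK did not pass (-1.04, exact permutation adjusted p = 0.233) and did without cSCC replicate 21 (-1.60, adjusted p = 0.0291). No ratio of Ccnd3 to Ccnd1 passed, with differences of -0.14, -0.73 and -0.60 in the 3 comparisons, but without cSCC replicate 21 it passed against NS (-1.82) and against AK (-1.68, exact permutation adjusted p = 0.0291 for both).

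**Figure D2:**
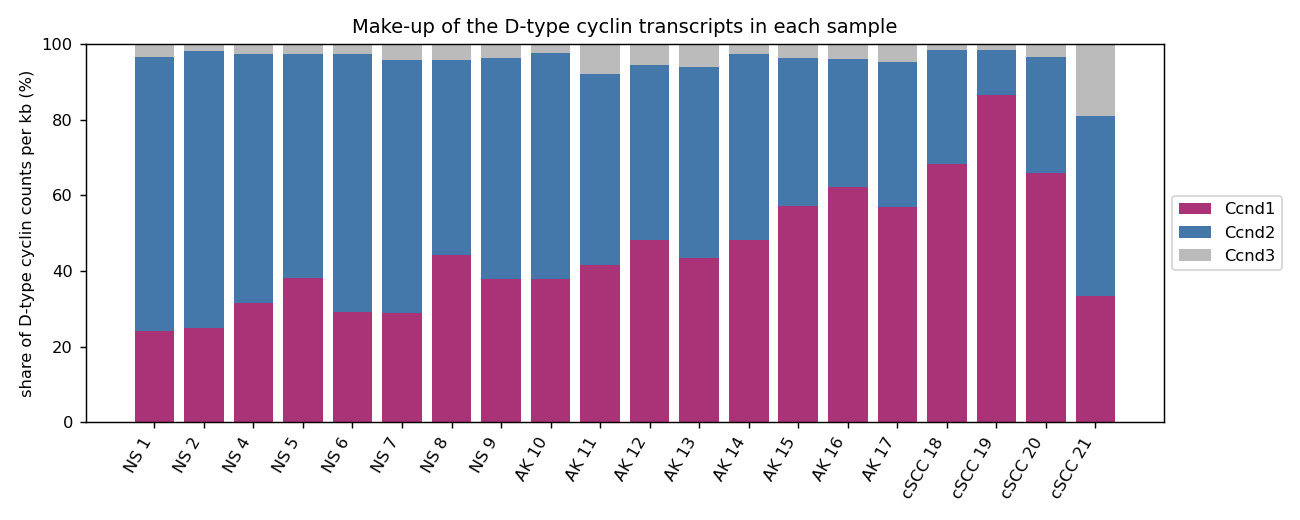
Share of Ccnd1, Ccnd2 and Ccnd3 in the summed D-type cyclin counts per kb (%, vertical axis) in each of the 20 samples. On average, Ccnd1 made up 32.4% of NS, 49.5% of AK and 63.5% of cSCC, and cSCC replicate 21 had the largest Ccnd3 share at 18.96%.

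As shares of the 3 cyclins per kb, Ccnd2 was the main one in NS at 64.4% ± 7.56 (SD, n = 8), against 45.9% ± 8.47 in AK and 30.1% ± 14.6 (n = 4) in cSCC. Ccnd1 took the opposite course, with 32.4% ± 7.13 in NS against 49.5% ± 8.59 in AK and 63.5% ± 22.2 in cSCC. Ccnd3 made up 3.22%, 4.63% and 6.35%. The spread was widest among the 4 cSCC samples.

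Of the kinases, Cdk4 was higher in cSCC and Cdk6 passed in no comparison. Cdk4 (chr10:127063534-127067920, plus strand) ranged from 64.7 to 113 CPM in NS (median 104) and from 49.1 to 114 CPM in AK (median 93.5), and was at 154, 209, 137 and 145 CPM in cSCC replicates 18 to 21. All 4 cSCC samples were above all 16 other samples. The log2 fold change was 0.76 against NS (SE 0.21, edgeR adjusted p = 0.0244) and 0.95 against AK (SE 0.22, adjusted p = 0.00899), or 1.70-fold and 1.93-fold. With library size alone as the scaling, cSCC replicate 18 was at 78.4 CPM, the groups overlapped and neither comparison passed (log2 0.49 and 0.73, edgeR adjusted p = 0.274 and 0.0830). The call against NS was also lost without cSCC replicate 19 (0.61, edgeR adjusted p = 0.0858). In AK vs. NS the difference was -0.14 (95% interval -0.47 to 0.19).

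Cdk6 (chr5:3341485-3531008, plus strand) varied widely within NS, from 11.01 CPM in replicate 2 to 181 CPM in replicate 8 (median 60.05). In AK it ranged from 53.0 to 120 CPM (median 101), and in cSCC it was at 66.0, 150, 77.4 and 27.6 CPM. The 3 groups overlapped, and the log2 fold changes were 0.31 (95% interval -0.42 to 1.04) in AK vs. NS, 0.20 (-0.97 to 1.36) in cSCC vs. NS and -0.07 (-0.84 to 0.70) in cSCC vs. AK. The sign of the last turned without cSCC replicate 21 (0.13). The log2 ratio of Cdk6 to Cdk4 per kb was -3.33 ± 0.83 in cSCC, -2.14 ± 0.59 in AK and -2.87 ± 1.198 in NS. Its difference between cSCC and AK did not pass after adjustment (-1.19, exact permutation p = 0.0202, adjusted p = 0.0671), and did without AK replicate 14 (-1.31, exact permutation adjusted p = 0.0485).

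Among the inhibitors of the list, Cdkn1b was lower in AK than in NS, while neither Cdkn2a nor Cdkn2b passed in any comparison. Cdkn1b (p27, chr6:134920401-134925513, plus strand) ranged from 23.0 to 87.5 CPM in NS (median 64.9), from 22.01 to 39.8 CPM in AK (median 35.1), and was at 41.0, 22.8, 43.2 and 13.1 CPM in cSCC. All 8 AK and all 4 cSCC samples were below the NS median, but NS replicates 7 (23.0 CPM) and 8 (29.2 CPM) lay within the AK range. The log2 fold change in AK vs. NS was -0.89 (SE 0.25, edgeR adjusted p = 0.0436), or 0.541-fold. It was close to the threshold, passed in 9 of 24 alternative settings, and was lost, among others, without any 1 of NS replicates 1, 2, 4, 5 or 9 or AK replicates 11 to 17 (log2 -0.93 to -0.78, edgeR adjusted p 0.0524 to 0.0902). In cSCC vs. NS the log2 fold change was -0.94 (95% interval -1.85 to -0.04, edgeR adjusted p = 0.132), and in cSCC vs. AK it was -0.03 (-0.69 to 0.62).

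Cdkn2a (p16INK4a and p19ARF, chr4:89274471-89294653, minus strand) was near the floor of many libraries, with at most 50 counts in any sample. It ranged from 0 to 12.8 CPM in NS (median 0.754) and from 0 to 7.48 CPM in AK (median 3.38), and was at 10.4, 9.67, 0 and 0.662 CPM in cSCC. The 4 samples with no count were NS replicates 4 and 5, AK replicate 12 and cSCC replicate 20, where 3 counts would be 1.02, 0.675, 3.78 and 3.41 CPM. The groups overlapped, and the log2 fold changes were 0.64 (95% interval -0.96 to 2.23) in AK vs. NS, 1.06 (-1.50 to 3.61) in cSCC vs. NS and 0.48 (-1.21 to 2.16) in cSCC vs. AK. No difference was detected, with counts this low and a spread among NS (CV 168%) larger than the mean.

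Cdkn2b (p15INK4b) lies next to Cdkn2a (chr4:89306299-89311039, minus strand). It held a mean of at least 84.2% of the Cdkn2a and Cdkn2b counts per kb in each group. Other INK4 genes were not part of this share. It ranged from 17.7 to 43.6 CPM in NS (median 31.9) and from 5.04 to 45.5 CPM in AK (median 22.1), and was at 47.9, 39.1, 20.5 and 3.14 CPM in cSCC. The lowest value of all was in cSCC replicate 21, and the groups overlapped. The log2 fold changes were -0.34 (95% interval -0.93 to 0.25) in AK vs. NS, -0.16 (-1.20 to 0.88) in cSCC vs. NS and 0.22 (-0.97 to 1.41) in cSCC vs. AK. The log2 ratio of Cdkn2a to Cdkn2b per kb was -4.82 ± 2.50 in NS and -2.45 ± 0.81 in AK, and the difference did not pass after adjustment (2.37, exact permutation p = 0.0224, adjusted p = 0.0671). It passed without NS replicate 8, the sample with the highest Cdkn2a of NS (2.91, exact permutation adjusted p = 0.0149).

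Rb1, the retinoblastoma gene (chr14:73183673-73325822, minus strand), was lower in cSCC than in AK. It ranged from 34.4 to 63.6 CPM in NS (median 46.1) and from 46.0 to 88.3 CPM in AK (median 58.4), and was at 41.0, 35.6, 20.5 and 18.9 CPM in cSCC replicates 18 to 21. All 4 cSCC samples were below all 8 AK samples, under TMM and under library size alone. The log2 fold change in cSCC vs. AK was -0.96 (SE 0.27, edgeR adjusted p = 0.0219), or 0.515-fold. The 2 lowest values were those of the libraries with lung and heart markers, and without both the log2 fold change was -0.59 (edgeR adjusted p = 0.189); without replicate 20 alone it was -0.84 (adjusted p = 0.0505). From NS, cSCC differed by -0.68 (95% interval -1.26 to -0.10, edgeR adjusted p = 0.0897), which passed with library size alone (-1.04, adjusted p = 0.0329). AK differed from NS by 0.31 (-0.03 to 0.65).

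Myc (chr15:61985391-61990374, plus strand) passed in no comparison. It ranged from 16.3 to 38.4 CPM in NS (median 26.3) and from 20.98 to 51.6 CPM in AK (median 31.7), and was at 29.9, 52.7, 19.3 and 20.8 CPM in cSCC. The highest level was in cSCC replicate 19, the library with the highest Ccnd1, and the groups overlapped. The log2 fold changes were 0.25 (95% interval -0.19 to 0.68) in AK vs. NS, 0.24 (-0.43 to 0.91) in cSCC vs. NS and 0.05 (-0.63 to 0.73) in cSCC vs. AK. Without cSCC replicate 19 the sign turned in cSCC vs. NS (-0.16) and in cSCC vs. AK (-0.35).

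**Figure D3:**
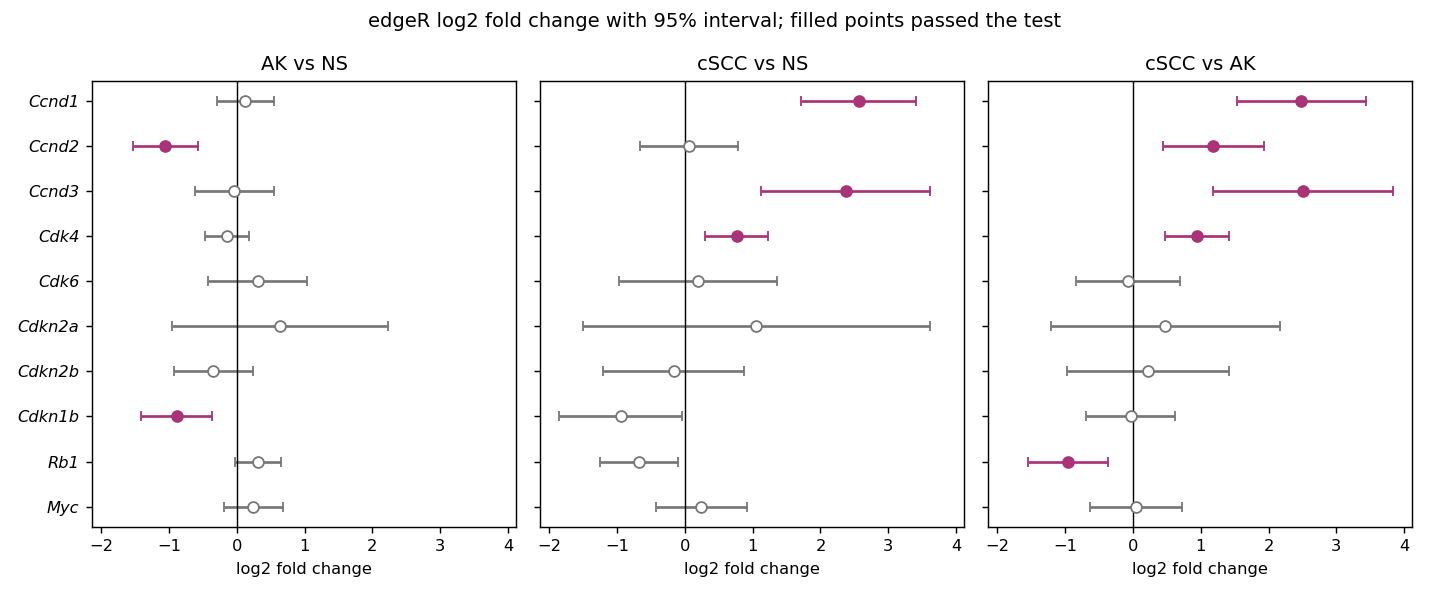
Log2 fold change of each of the 10 genes (edgeR, horizontal axis) with its 95% interval in the comparisons of AK with NS and of cSCC with NS and with AK; filled points passed the test. Ccnd2 and Cdkn1b passed in AK vs. NS, Ccnd1, Ccnd3 and Cdk4 in cSCC vs. NS, and these 3 with Ccnd2 and Rb1 in cSCC vs. AK.

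Counted together, 2 of the 10 genes were called in AK vs. NS, both lower, where 4.64% of all 11677 genes tested were called (264 higher and 278 lower). Against NS, 3 of the 10 were called in cSCC, all higher, beside 19.3% of 12097 genes. Against AK it was 5 of the 10, of which 4 were higher and 1 lower, beside 24.4% of 12032 genes. A gene was called with an adjusted p under 0.05 together with a change of more than 1.5-fold up or to less than 0.67-fold. The median log2 fold change of the 10 genes was 0.05, 0.22 and 0.35 in these comparisons, beside -0.04, 0.14 and 0.17 for all genes tested. Each comparison shares 1 group with each of the others. With library size alone, the median of all genes in cSCC vs. NS moved from 0.14 to -0.17 and the calls from 1414 higher and 926 lower to 625 and 1332. Against AK the median moved from 0.17 to -0.09 and the calls from 1931 and 1004 to 1021 and 1356.

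Markers of some other cells moved with the tumor group. Against NS, 5 of 6 suprabasal keratinocyte markers were lower in cSCC, as were 3 of 6 skeletal muscle markers and 1 of 7 leukocyte markers (Cd3g), while 5 of 6 endothelial markers were higher. None of the 7 basal keratinocyte, 6 fibroblast and 3 adipocyte markers tested was called, where 19.3% of all genes were. The endothelial markers summed to 88.9, 107, 197 and 548 CPM in cSCC replicates 18 to 21 against 26.5 to 94.3 CPM in NS, so replicate 18 lay within the NS range and the 2 libraries that stood apart had the highest sums. Without cSCC replicates 20 and 21, 0 of the 6 endothelial markers were called by edgeR against NS (1 with an unadjusted p under 0.05). In that setting 4 suprabasal, 2 adipocyte (of 4 tested), 1 skeletal muscle, 1 leukocyte and 1 lung epithelium marker were lower. There, 1 heart muscle marker was higher. Skeletal muscle markers summed to 508 to 8324 CPM in cSCC, highest in replicate 21, against 577 to 7646 CPM in NS. In AK vs. NS, 1 of 6 suprabasal markers was lower, and none of the other marker genes tested was called by edgeR. No suprabasal, skeletal muscle, leukocyte or endothelial marker was at 0 in a whole group. The part of the marked cells in the levels of the 10 genes was not tested.

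**Figure D4:**
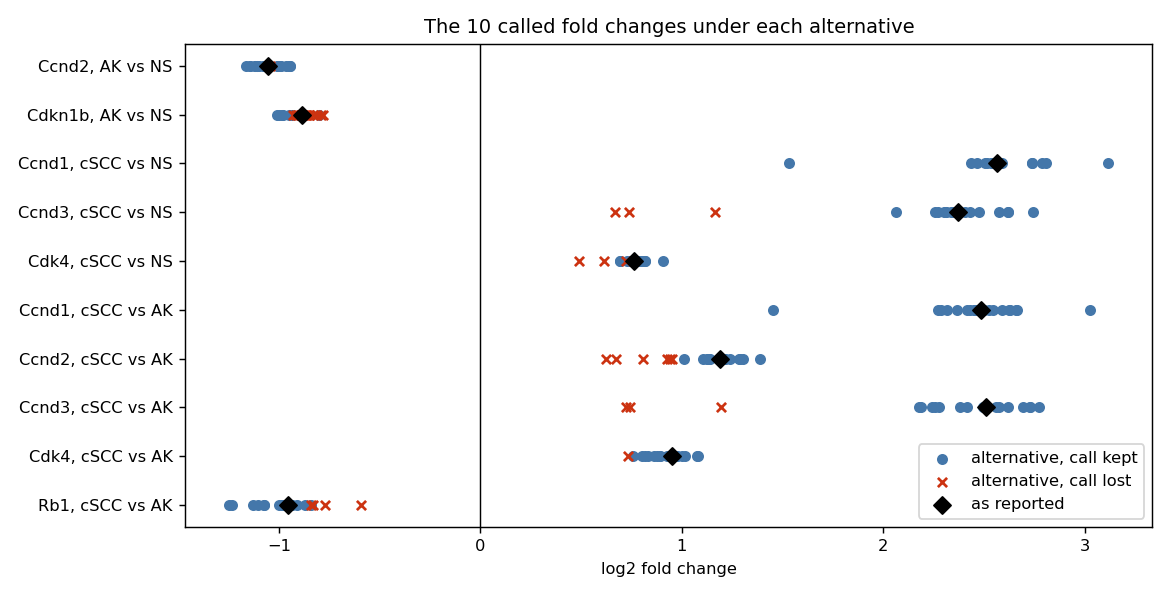
Log2 fold change (horizontal axis) of the 10 called differences as reported (diamonds) and under each alternative setting (circles where the call was kept, crosses where it was lost). The 2 Ccnd1 calls were kept in all 21 alternatives, and Cdkn1b in AK vs. NS was lost in 15 of 24.

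Other genes of the pathway were counted in the same way. Of 26 partners in G1 and S phase (E-type cyclins, Cdk2, other CDK inhibitors, E2F and DP factors), 0 were called by edgeR in AK vs. NS (8 had an unadjusted p under 0.05, and DESeq2 and voom called 2 each), 1 was higher in cSCC vs. NS and 1 was higher in cSCC vs. AK, with none lower. These were Cdkn2d (p19INK4d) against NS (log2 1.12, SE 0.33, edgeR adjusted p = 0.0285) and Tfdp2 (a DP partner of E2F) against AK (1.43, SE 0.49, adjusted p = 0.0472). Neither passed without cSCC replicates 20 and 21 (1.21 and 1.37, edgeR adjusted p = 0.0609 and 0.134), and Tfdp2 was kept in 6 of 21 alternatives. With these 2 libraries left out, edgeR called 1 of the 26 higher and 0 lower against NS. Against AK it then called 1 higher and 2 lower. Under scaling by library size alone, edgeR called 0 of the 26 in each comparison (6, 5 and 4 had an unadjusted p under 0.05). The median log2 fold change of the 26 was 0.23, 0.34 and 0.15 in the 3 comparisons, beside -0.04, 0.14 and 0.17 for all genes. Of all genes, 4.64%, 19.3% and 24.4% were called in these comparisons.

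Of 18 E2F targets of S phase, 2 were higher and 0 lower in AK vs. NS, namely Ccna2 (cyclin A2, log2 0.86, SE 0.22, edgeR adjusted p = 0.0326) and Pcna (the DNA polymerase clamp, 0.63, SE 0.18, adjusted p = 0.0427). Higher in cSCC vs. NS were Rrm2 (a ribonucleotide reductase subunit, 1.91, SE 0.37, edgeR adjusted p = 0.00481) and Mcm3 (a part of the replicative helicase, 0.81, adjusted p = 0.0495). Against AK, Rrm2 was higher (1.28, edgeR adjusted p = 0.0184) and Pcna lower (-0.81, adjusted p = 0.0401). The list's median was 0.14, 0.45 and 0.29, and 4.64%, 19.3% and 24.4% of all genes were called. Rrm2 in cSCC vs. NS was kept in all 21 alternatives, whereas Mcm3 was kept in 5 of 21, Pcna in AK vs. NS in 7 of 24, and Pcna in cSCC vs. AK in 8 of 21. Without cSCC replicates 20 and 21, 4 of the 18 targets were higher against NS and 3 against AK, with none lower. Under library size alone, 1 was higher against NS, and against AK 0 were higher and 1 was lower.

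Of 14 mitotic genes, 0 were called by edgeR in AK vs. NS (4 had an unadjusted p under 0.05, DESeq2 called 0 and voom 2), and 3 were higher in both cSCC comparisons: the kinases Aurka and Plk1 and the anaphase activator Cdc20. Against NS their log2 fold changes were 1.77, 1.73 and 1.58 (edgeR adjusted p = 0.0111, 0.0280 and 0.0126), and against AK 1.80, 2.18 and 1.59 (adjusted p = 0.00539, 0.00541 and 0.00219). The list's median was 0.43, 0.80 and 0.13, and 4.64%, 19.3% and 24.4% of all genes were called. Without cSCC replicates 20 and 21 all 3 were still called in both comparisons, and in total 5 of the 14 were higher against NS and 3 against AK. The counts were 2 against NS and 3 against AK with library size alone.

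Of 13 Myc network genes, 12 passed the filter, and of these 3 were lower in AK vs. NS and none higher: Bin1 (a Myc-binding adaptor, log2 -1.29, SE 0.31, edgeR adjusted p = 0.0268), Mycl (the L-Myc paralog, -1.17, SE 0.32, adjusted p = 0.0410) and Mxd4 (a Max partner that opposes Myc, -0.70, SE 0.18, adjusted p = 0.0336). Mycl was also lower in cSCC vs. NS (-3.99, SE 0.97, edgeR adjusted p = 0.0129) and Mlx (a Max-like protein) was higher (0.92, adjusted p = 0.0311). Against AK, Bin1 (1.80, edgeR adjusted p = 0.0131), Zbtb17 (Miz1, which binds Myc at repressed genes, 1.43, adjusted p = 0.0205) and Mlx (0.93, adjusted p = 0.0349) were higher and Mycl lower (-2.71, adjusted p = 0.0481). The list's median was -0.19, 0.03 and 0.33, and 4.64%, 19.3% and 24.4% of all genes were called. Without cSCC replicates 20 and 21, none of the 12 was higher against AK (Bin1 1.45, Zbtb17 0.73 and Mlx 1.00, edgeR adjusted p = 0.0883, 0.341 and 0.0589) and 2 were lower. Scaled by library size alone, 1 was higher and 1 lower against AK, and against NS 0 were higher and 1 was lower in cSCC.

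Of 18 Myc targets, 1 was higher in AK vs. NS, the lactate dehydrogenase gene Ldha (log2 0.73, SE 0.16, edgeR adjusted p = 0.0190), a call kept in 23 of 24 alternatives. There were 5 higher and 0 lower in cSCC vs. NS: Odc1 (polyamine synthesis, 2.72, edgeR adjusted p = 0.00814), Ldha (1.71, adjusted p = 0.00624), Bop1 (ribosome assembly, 1.42, adjusted p = 0.0156), Cad (pyrimidine synthesis, 1.16, adjusted p = 0.0436) and Nop56. The same 5 were higher and 0 lower in cSCC vs. AK, with Bop1 at 1.72, Cad at 1.55, Odc1 at 1.52 and Nop56 (a nucleolar protein) at 1.08 (edgeR adjusted p = 0.00398, 0.0115, 0.0485 and 0.00999). The list's median was 0.14, 0.30 and 0.07, beside -0.04, 0.14 and 0.17 for all genes. Of all genes, 4.64%, 19.3% and 24.4% were called. With library size alone, 2 of the 18 were higher against NS and 1 against AK. Without cSCC replicates 20 and 21, 4 were higher against NS and 5 against AK, but Cad (1.25) and Bop1 (1.19) no longer passed against NS (edgeR adjusted p = 0.0960 and 0.0700). Cad in cSCC vs. NS was kept in 5 of 21 alternatives.

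The 10 genes were compared with each other over the 16 NS and AK samples, as log2(CPM + 1) and in 45 pairs. Pearson's r ranged from -0.70 to 0.63 with a median of 0.04, and no pair passed on r after adjustment (8 had an unadjusted permutation p under 0.05). The 2 lowest r were those of Cdkn1b with Cdkn2a (r = -0.70, rho = -0.60, permutation adjusted p = 0.0592 and 0.177) and of Cdkn1b with Cdk6 (r = -0.66, rho = -0.60, permutation adjusted p = 0.0592 and 0.177). The highest was Cdk6 with Cdkn2a (r = 0.63, permutation adjusted p = 0.0656), the only pair that passed on rank (rho = 0.78, permutation adjusted p = 0.0243). Dropping the 2 samples most distant from the first gene's median gave r = 0.75 for Cdk6 with Cdkn2a, and -0.80 for Cdkn2a with Cdkn1b. Dropping the 2 most distant from the second gene's median gave 0.54 and -0.67. For Cdk6 with Cdkn1b the values were -0.59 and -0.56.

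**Figure D5:**
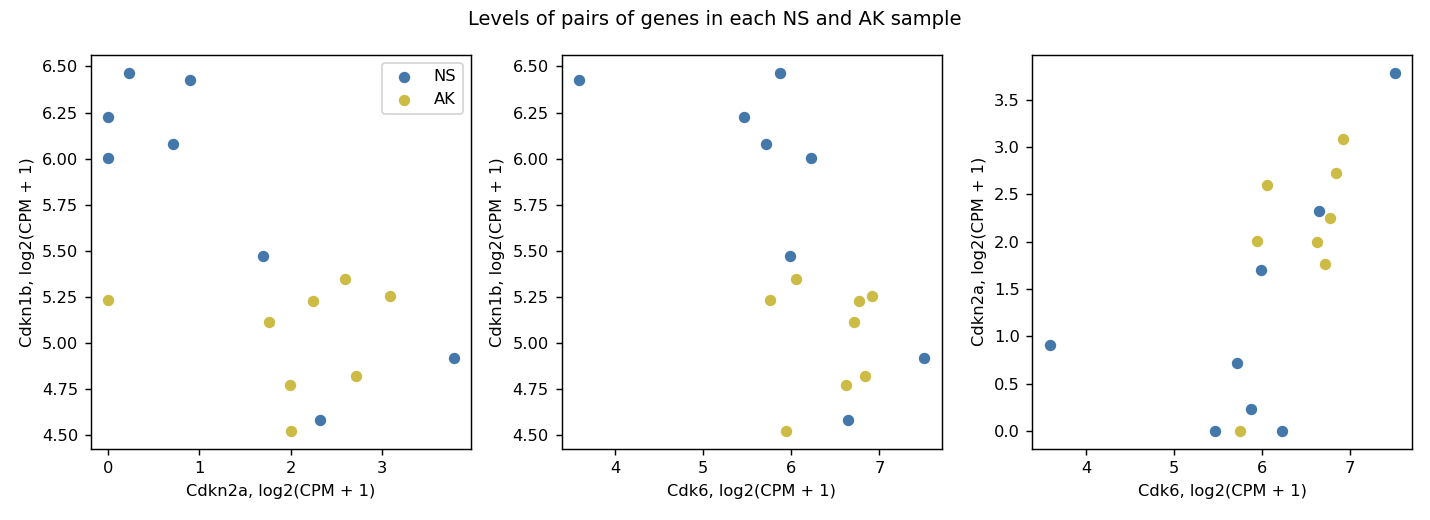
Levels of Cdkn2a, Cdkn1b and Cdk6 against each other, as log2(CPM + 1), in each of the 16 NS and AK samples (points, coloured by group). NS replicates 7 and 8, with the lowest Cdkn1b of NS, had the highest Cdkn2a and Cdk6 of NS.

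Within the groups, the relations with Cdkn1b differed in size. For Cdkn2a and Cdkn1b, r was -0.84 within the 8 NS samples (exact permutation p = 0.0105) and -0.05 within the 8 AK samples (exact permutation p = 0.913). For Cdk6 and Cdkn1b it was -0.72 in NS and 0.06 in AK (exact permutation p = 0.0343 and 0.877). For Cdk6 and Cdkn2a, the pair that passed on rank, r was 0.57 in NS and 0.65 in AK (exact permutation p = 0.148 and 0.0532). Differences between the groups were not tested, and the p-values within groups were not adjusted for the 45 pairs. NS replicates 7 and 8 had the 2 lowest Cdkn1b levels and the 2 highest Cdkn2a (3.99 and 12.8 CPM) and Cdk6 (99.0 and 181 CPM) levels of NS. The labels do not say whether these samples came from irradiated mice.

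Outside the list, the genes most like each called member over the 16 NS and AK samples were named from 8590 genes with a mean of at least 10 CPM, by Pearson's r of log2(CPM + 1). These values describe samples that share libraries, scaling and, in part, mice, and the highest of so many would be large in any case. For Ccnd1 they were Fam84b (r = 0.90) and Dut (0.86), for Ccnd2 Mlf2 (0.91) and Tob2 (0.91), and for Ccnd3 P4ha2 (0.79) and Gstp1 (0.75). For Cdk4 they were Fam104a (0.91) and Gatad2a (0.88), for Cdkn1b Tmem56 (0.92) and Trim2 (0.89), and for Rb1 Taf13 (0.88) and Mob1b (0.88). With the 2 samples most distant from the member's median left out, r was 0.65 to 0.94. Within single groups r was lower for some, at 0.39 within NS for Ccnd2 with Mlf2 and 0.31 within AK for Cdkn1b with Trim2, and these 2 members differed between the groups pooled here.

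The strand used in counting is not stated in the sources used here, and exons of 6 of the 10 genes overlap exons of genes on the opposite strand in GENCODE M21. The overlap was 1100 bases for Ccnd1, 372 and 368 for Ccnd2 (with 2 antisense genes), 641 for Cdk4 (with Tspan31), 361 for Ccnd3 (with Bysl), 368 for Cdk6, and 488 and 408 for Rb1 (with Rcbtb2 and Lpar6). Counts of these genes may include or lack reads of their partners.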

How the data were processed

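The authors trimmed reads with Trimmomatic and aligned them with HISAT2, and deposited raw counts per gene symbol, not normalized. The submitters' processing notes list Trimmomatic 0.36, HISAT2 2.0.5 and featureCounts 1.5.2 with mm9 and hg19, while the paper names GRCm38 and StringTie. The labels and the paper also differ on the irradiation schedule and the sequencer. Groups came from the sample labels. The 10 genes and all gene lists were chosen with earlier results of these data known.

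CPM used TMM factors over the 20 samples. Comparisons used edgeR 4.0.16 in R 4.3.3 (quasi-likelihood test, filterByExpr, only the 2 groups compared). The SE is the log2 fold change over the square root of F. All tests were two-sided. Ratios within a sample used counts per kb with 0.5 count added and exact permutation tests. Correlations used 100000 permutations (all orders within a group). Lengths (merged exons of all transcripts of a gene) and positions are of GENCODE M21. Named genes were the 10, at most the 4 largest called per list and comparison, and the 2 most like genes per called member; Nop56 in cSCC vs. NS was named after its values were seen. Scripts were tested on simulated data. Within-group sample pairs (62) had a chi-square of at least 11.3 per degree of freedom, so none were counted as 1 sample. Alternatives included DESeq2 1.42.0 and limma 3.58.1 voom; running them on the list genes, and counting the marker lists under some of them, was chosen after seeing the data. Python 3.11.15 was used.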

Additional observations from a re-analysis of the deposited data

Results flagged for a closer look

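In 3 of the 30 groups of samples checked (10 genes in 3 groups), the highest sample stood apart from the others of its group by Dixon's test at the 95% level, where chance gives about 1 in 20. Ccnd1 in cSCC replicate 19 was at 608 CPM, against 102 to 141 CPM in the other 3 cSCC samples. This library also had the highest summed basal keratinocyte markers of cSCC (18488 CPM) and a summed level of suprabasal markers of 121 CPM. The basal sum was close to it, at 17881 CPM, in cSCC replicate 18, which had the lowest Ccnd1 of cSCC (102 CPM). Ccnd3 in cSCC replicate 21 was at 113 CPM, against 4.17 to 19.8 CPM in the other cSCC samples, and this is the library in which heart muscle markers summed to 47787 CPM. Cdkn2a in NS replicate 8 was at 12.8 CPM, from 42 counts, against 0 to 3.99 CPM in the other 7 NS samples. The same library had the highest Cdk6 of all 20 samples (181 CPM) and the highest summed basal keratinocyte markers of NS (16334 CPM). The part of these markers in the 3 levels was not tested.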

How the results depend on the processing

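No paired analysis was possible because the groups share no replicate number and no label ties a tissue to its mouse. The number of the 10 genes called in AK vs. NS (2) was 0 with all 20 samples in 1 fit, 1 with no filter, 1 without AK replicate 12 (the smallest library of these groups), and 1 to 2 leaving out each sample in turn. In cSCC vs. NS (3) it was 5 with all 20 samples in 1 fit, 5 with an unadjusted p, 2 with voom, with no filter or without cSCC replicates 20 and 21, and 2 (without cSCC replicate 19 or 21) to 4 leaving out each sample. In cSCC vs. AK (5) it was 3 with library size alone, 2 with voom, 2 without cSCC replicates 20 and 21, and 3 to 5 leaving out each sample. The cause of these moves was not tested.

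The log2 fold changes that turned sign belong to differences that had not passed. With voom these were Ccnd3 in AK vs. NS (0.014), Ccnd2 in cSCC vs. NS (-0.23), and Cdk6 (0.075) and Cdkn2a (-0.25) in cSCC vs. AK. With library size alone they were Ccnd2 in cSCC vs. NS (-0.22), and Cdkn2b (-0.090) and Myc (-0.15) in cSCC vs. AK. Upper quartile factors gave -0.0070 for Ccnd2 in cSCC vs. NS. All 20 samples in 1 fit gave -0.032 for it and -0.080 for Myc in cSCC vs. AK. No filter gave -0.14 for Myc in cSCC vs. AK, and a filter of 10 counts in every sample gave 0.019 for Cdk6 and 0.049 for Cdkn1b there. Leaving out the smallest library, AK replicate 12, gave 0.033 for Ccnd3 in AK vs. NS. Without cSCC replicates 20 and 21, Ccnd2 was at -0.41 and Cdkn2b at 0.48 in cSCC vs. NS, and Cdk6 at 0.34 and Cdkn1b at 0.030 in cSCC vs. AK.

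Leaving out each sample in turn, log2 fold changes spanned 0 for Ccnd1 (-0.010 to 0.23) and Ccnd3 (-0.21 to 0.070) in AK vs. NS. In cSCC vs. NS they did so for Ccnd2 (-0.38 to 0.26), Cdk6 (-0.30 to 0.51), Cdkn2b (-0.60 to 0.23) and Myc (-0.16 to 0.39). In cSCC vs. AK they did so for Cdk6 (-0.58 to 0.13), Cdkn2a (-0.11 to 0.83), Cdkn2b (-0.24 to 0.53), Cdkn1b (-0.30 to 0.14) and Myc (-0.35 to 0.20).

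The log2 ratio of Ccnd2 to Ccnd1 in cSCC vs. NS (-2.17) no longer passed with medians (-2.27). It also did not pass without cSCC replicates 20 and 21 (-3.03) or without the smallest library, cSCC replicate 20 (-2.18). With cSCC samples left out, the exact test has few splits and could hardly pass after adjustment, so these losses do not show a smaller difference. Leaving out each sample, the ratio difference was -2.72 to -1.60 against NS and -1.60 to -0.47 against AK. The ratio of Cdkn2a to Cdkn2b in cSCC vs. AK (-0.17) turned to 0.12 with 2 counts added, 0.33 with medians, 0.62 without cSCC replicates 20 and 21 and 0.54 without the 2 smallest libraries, AK replicate 12 and cSCC replicate 20, and was -0.47 to 0.61 leaving out each sample; in AK vs. NS it was 1.86 to 2.91. The ratio of Ccnd3 to Ccnd1 was -1.82 to -0.15 against NS and -1.68 to -0.011 against AK, and that of Cdk6 to Cdk4 in cSCC vs. AK was -1.44 to -0.81.

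Over all genes, calls in AK vs. NS went from 264 higher and 278 lower to 433 and 616 with DESeq2, 521 and 522 with voom, 176 and 481 with library size alone, 190 and 391 with upper quartile factors, 182 and 335 with at least 10 counts in every sample, and 5 and 4 with all 20 samples in 1 fit. An unadjusted p gave 1798. Leaving out 1 sample gave from 87 and 77 (NS replicate 4) to 437 and 483 (NS replicate 8). Voom gave 768 and 540 in cSCC vs. NS and 726 and 544 in cSCC vs. AK, and an unadjusted p gave 4052 and 4504. The filter of at least 10 counts throughout gave 958 and 568 in cSCC vs. NS and 1112 and 619 in cSCC vs. AK. Leaving out cSCC replicates 20 and 21 gave 733 and 825, and 843 and 741. Without replicate 21 alone it was 859 and 892, and 837 and 950. Low counts and spread between samples both limit Cdkn2a, and every tumor comparison rests on 4 cSCC samples.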
